A study of Mus musculus with 2 samples.

Results

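The enzymes that build cholesterol from mevalonate were examined in granulosa cells of mice with and without estrogen receptor beta (ERβ, encoded by Esr2). The listed genes were Hmgcs1, Mvk, Idi1, Fdps, Fdft1, Sqle, Lss, Cyp51 and Dhcr7, and they were chosen by name, through the accession or the symbol that the scanner files give for each non-control probe. Of these 9 genes, 6 had a probe: Mvk, Fdps, Fdft1, Sqle, Cyp51 and Dhcr7, with 1 probe and 1 spot each. Idi1 and Lss had no probe under their symbols, but 2 probes carried the names of their enzymes in the description and are given apart. No probe was matched to Hmgcs1. All 6 were above background in all 4 channels. They are set beside the 18519 genes or unnamed transcripts that the scanner called well above background. For each of these, at least 1 pool, the same one in both hybridisations, had to pass.

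RNA came from 2 pools of granulosa cells of female C57/Bl6 mice aged 23 to 25 days, 1 pool from Esr2+/- animals (het, which carry a mutant allele too) and 1 from Esr2-/- animals (null). All animals received pregnant mare serum gonadotropin (PMSG), a hormone that acts like follicle-stimulating hormone, for 48 h. The pools were hybridised against each other on 2 two-colour Agilent arrays, with null RNA in Cy5 on array 1 and in Cy3 on array 2. Both arrays are technical repeats on the same pools (n = 2 hybridisations), so the SD after ± holds no spread between animals. With 1 pool per genotype there is no test and no p-value, and the number of animals per pool is not given in the sources used here. Ratios below are log2 of null over het, after background correction and loess normalization within each array, unless a fold is named. In these pools of cells, fewer cells of a type and less RNA per cell cannot be told apart.

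The mevalonate pathway joins small acetyl units into isoprenoid building blocks. Farnesyl diphosphate, made by the Fdps enzyme, is its branch point: the Fdft1 enzyme (squalene synthase) commits it to sterols, while other enzymes use it for dolichol, ubiquinone, heme A and the lipid anchors of proteins. The sterol genes are known to be switched on together by the transcription factor SREBP2 (encoded by Srebf2), which binds sterol regulatory elements and works with NF-Y, bound at CCAAT boxes, and with Sp1, bound at GC boxes. In the ovary, cholesterol is the starting substrate of steroid hormone synthesis.

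Promoters of 6 of the 9 genes were in the RefSeq promoter table (GRCm38.p6). Fdps, Fdft1 and Sqle were not matched there. The sequences below are the 150 bases before the start site of Hmgcs1 and of the 3 measured genes with an entry. Of the 6 genes with an entry, only Hmgcs1 held the sterol element motif searched here. Dhcr7 is shown at the first of its 3 listed start sites. Capitals mark the motifs TCACNCCAC (a form of the sterol regulatory element), CCAAT and GGGCGG, each searched on both strands, so that a match on the opposite strand stands as its reverse complement.
Hmgcs1 (chr13:119690201-119690350, plus strand): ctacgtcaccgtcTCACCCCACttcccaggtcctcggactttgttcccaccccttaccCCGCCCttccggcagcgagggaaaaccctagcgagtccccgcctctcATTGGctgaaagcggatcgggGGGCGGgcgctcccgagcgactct
Mvk (chr5:114444119-114444268, plus strand): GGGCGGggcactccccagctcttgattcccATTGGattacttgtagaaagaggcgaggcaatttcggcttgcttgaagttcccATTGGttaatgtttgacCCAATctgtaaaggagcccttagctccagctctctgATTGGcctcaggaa
Cyp51 (chr5:4104698-4104847, minus strand): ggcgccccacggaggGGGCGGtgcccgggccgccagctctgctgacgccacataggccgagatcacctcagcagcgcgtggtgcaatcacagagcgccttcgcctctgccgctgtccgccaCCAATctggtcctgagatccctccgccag
Dhcr7 (chr7:143823017-143823166, plus strand): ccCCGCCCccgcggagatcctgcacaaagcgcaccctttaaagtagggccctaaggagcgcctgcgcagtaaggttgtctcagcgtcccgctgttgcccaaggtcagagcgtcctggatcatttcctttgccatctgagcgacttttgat
Within 250 bases before the start, CCAAT occurred at 6 of the 8 start sites listed for these 6 genes, against 33.8% of all 32851 promoters in the table, and GGGCGG at 7 of the 8, against 32.7%. Each gene had at least 1 start site with CCAAT and at least 1 with GGGCGG, and Dhcr7 has 3 start sites. Mvk held 5 CCAAT matches and Hmgcs1 held 3. TCACNCCAC occurred in Hmgcs1 alone among these genes, 137 bases before the start, against 1.05% of all promoters. At the first Dhcr7 start site no CCAAT was found, and the third start site held 2. A match describes the letters in these windows only.

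The enzymes did not differ between the pools in one direction. Of the 6 measured genes, 2 (Fdps and Dhcr7) were lower in the null pool on both arrays, 1 (Fdft1) was higher on both, and 3 (Mvk, Sqle and Cyp51) had opposite signs on the arrays. Over all genes, 24.3% were lower on both arrays and 22.7% were higher on both. A log2 ratio of at least 0.32 in size, the same way on each array, was seen for Fdps, which was lower (0.799% of all genes), and for Fdft1, which was higher (1.12% of all genes). Under median centring in place of loess neither reached it on both arrays. None reached a mean of 2-fold with at least 1.5-fold on each array, a rule met by 0.0918% of all genes as lower and 0.0378% as higher. The median ratio of the 6 genes was -0.02, with -0.20 on array 1 and 0.02 on array 2, and that of all genes was -0.00378.

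**Figure D1:**
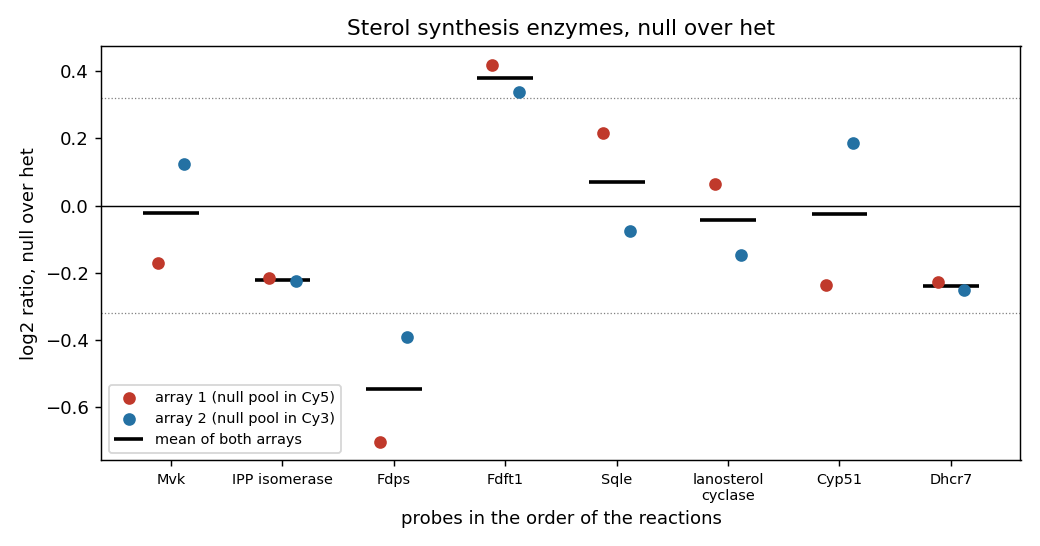
Log2 ratio of null over het (vertical axis) for the 6 measured genes and the 2 probes named by their enzyme, in the order of the reactions, on array 1 (red) and array 2 (blue); black bars are means and dotted lines mark 0.32 in either direction. Fdps lies lowest at a mean of -0.55 and Fdft1 highest at 0.38, and the arrays disagree in sign for Mvk, Sqle, Cyp51 and the lanosterol cyclase probe.

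The first enzyme of the measured series is mevalonate kinase (Mvk, NM_023556), which phosphorylates mevalonate. Its log2 signal was 6.31 in the null and 6.48 in the het pool on array 1, and 6.57 and 6.45 on array 2. The null pool was therefore the lower one on array 1 and the higher one on array 2, with ratios of -0.17 and 0.12 (mean -0.02 ± 0.21). Mvk was dim: its spots were 1.70 to 2.15 times the local background. Isopentenyl-diphosphate delta-isomerase, the enzyme that interconverts the 5-carbon building blocks, was read by the probe for AK029302. Signals were 7.38 in the null and 7.60 in the het pool on array 1, and 7.62 and 7.84 on array 2. The ratios of -0.22 and -0.23 (mean -0.22 ± 0.01) placed the null pool below the het pool by nearly the same amount in both dye orientations.

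Fdps (NM_134469), which makes farnesyl diphosphate, had the lowest ratio of the measured genes. Its log2 signal was 9.88 in the null and 10.58 in the het pool on array 1, and 10.05 and 10.45 on array 2. Both null signals lay below both het signals. The ratios were -0.70 and -0.39, a mean of -0.55 ± 0.22, so that Fdps was 1.46-fold lower in the null pool (1.63-fold on array 1 and 1.31-fold on array 2). It was the 93rd lowest of the 18519 genes by mean ratio. The spots were bright, at 13.3 to 47.9 times the local background, and only 4.10% of genes were brighter. Of the 861 genes within 0.5 log2 units of its brightness, 0.929% had a lower mean ratio, and the SD of the dye part of the ratio (the difference between the arrays divided by 2) over these genes was 0.13.

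Fdft1 (NM_010191), which joins farnesyl diphosphate into squalene, was the measured gene with the highest ratio. Its log2 signal was 11.15 in the null and 10.73 in the het pool on array 1, and 10.56 and 10.22 on array 2. Within each array the null pool was higher, while across arrays the pools overlapped, because both signals were higher on array 1. The ratios were 0.42 and 0.34, a mean of 0.38 ± 0.06, or 1.30-fold higher in the null pool (1.34-fold on array 1 and 1.27-fold on array 2). Fdft1 was the 232nd highest of all genes. Its spots were 18.7 to 66.8 times the local background. Of the 515 genes within 0.5 log2 units of its brightness, 5.24% had a higher mean ratio.

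**Figure D2:**
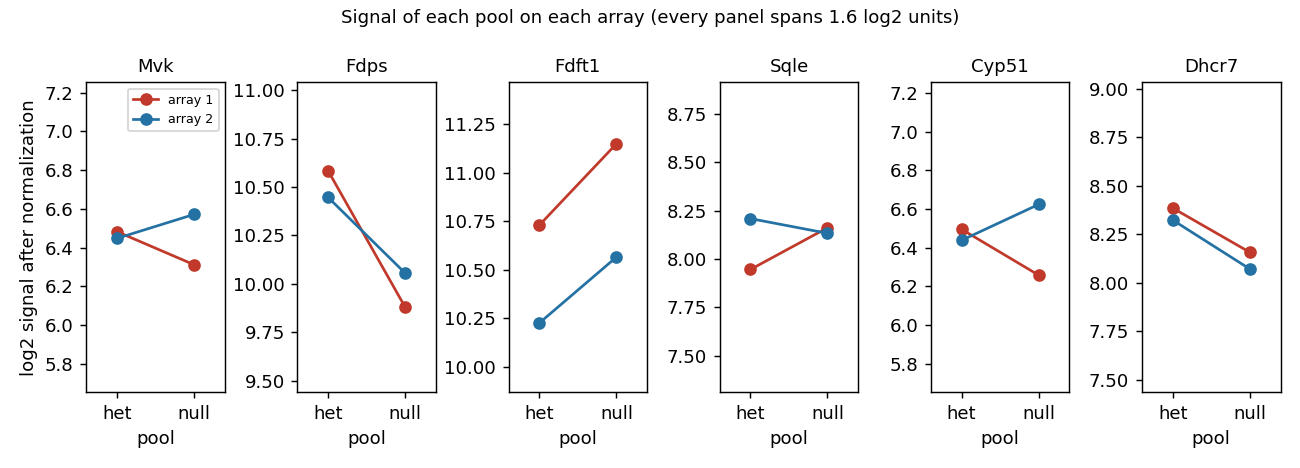
Log2 signal after normalization (vertical axis, every panel spanning 1.6 log2 units at its own height) in the het and null pools for the 6 measured genes, with 1 line per array. The null point is the lower one on both lines for Fdps and Dhcr7 and the higher one for Fdft1, while the lines slope in opposite directions for Mvk, Sqle and Cyp51.

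The enzymes that make farnesyl diphosphate and that commit it to sterols differed between the pools in opposite directions. Fdft1 minus Fdps, as a difference of log2 ratios, was 1.12 on array 1, 0.73 on array 2 and 0.93 ± 0.28 in the mean. In linear terms, Fdft1 relative to Fdps was 1.90-fold higher in the null pool (2.18-fold on array 1 and 1.66-fold on array 2). This shows unequal differences of these genes within the same arrays. Under median centring, which leaves any trend of the dye ratio with brightness in place, the difference was 1.15 on array 1 and 0.72 on array 2. The separate ratios were less stable there: Fdft1 had 0.90 on array 1 and -0.23 on array 2, and Fdps had -0.25 and -0.96.

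**Figure D3:**
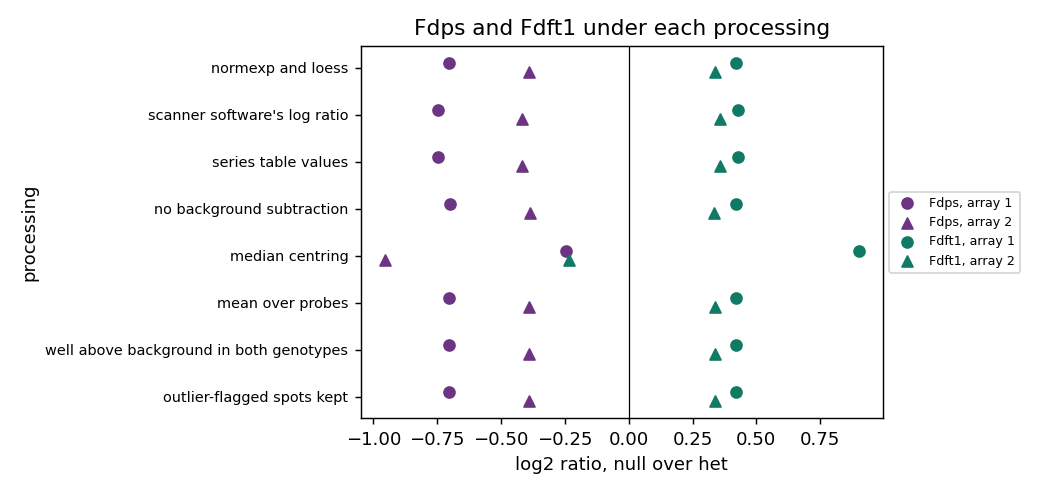
Log2 ratio of null over het (horizontal axis) of Fdps (purple) and Fdft1 (green) on array 1 (circles) and array 2 (triangles) under each processing (vertical axis). Fdps lies below 0 in every row, and Fdft1 lies above 0 in every row except on array 2 under median centring, at -0.23.

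Squalene epoxidase (Sqle, NM_009270), which adds oxygen to squalene and is a control point of the sterol branch, showed no settled direction. It read 8.16 on the log2 scale in the null and 7.95 in the het pool on array 1, and 8.13 and 8.21 on array 2. The ratios of 0.22 and -0.08 gave a mean of 0.07 ± 0.21. Sqle was read at 3.72 to 9.04 times the local background, so the disagreement between the arrays was not limited to the dimmest genes. Lanosterol cyclase, which closes the sterol ring system, was read by the probe for BC029082, described in the files as similar to that enzyme. Its ratios were 0.06 and -0.15 (mean -0.04 ± 0.15) at 1.36 to 1.75 times the local background.

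Cyp51 (NM_020010), the cytochrome P450 that removes a methyl group from lanosterol, had the largest spread between the arrays among the 6 genes. The log2 signal was 6.26 in the null and 6.50 in the het pool on array 1, and 6.62 and 6.44 on array 2. The ratios of -0.24 and 0.19 gave a mean of -0.03 ± 0.30. On both arrays the Cy3 signal was the higher one, and the dye part of its ratio (red over green) was -0.21, against -0.15 for Mvk, 0.15 for Sqle and -0.16 for Fdps. Spots of Cyp51 were 1.72 to 2.15 times the local background.

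Dhcr7 (NM_007856), the reductase that makes cholesterol from 7-dehydrocholesterol, was lower in the null pool by a smaller amount than Fdps. Its log2 signal was 8.16 in the null and 8.39 in the het pool on array 1, and 8.07 and 8.32 on array 2. Both null signals lay below both het signals. Such separation held for 2 of the 6 genes, Fdps and Dhcr7, and for 6.55% of all genes. Signals were normalized within each array only, so this rule also depends on shifts in brightness between the arrays. None of the 6 had both null signals above both het signals. Over all genes the share was 10.1%, so none among only 6 genes is no contrast. The ratios of -0.23 and -0.25 (mean -0.24 ± 0.02, 1.18-fold lower) agreed closely between the dye orientations, and of the 4273 genes within 0.5 log2 units of its brightness, 2.97% had a lower mean ratio. Under median centring, however, array 1 gave 0.07 and array 2 gave -0.56, so that its sign on array 1 turned while array 2 stayed negative.

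**Figure D4:**
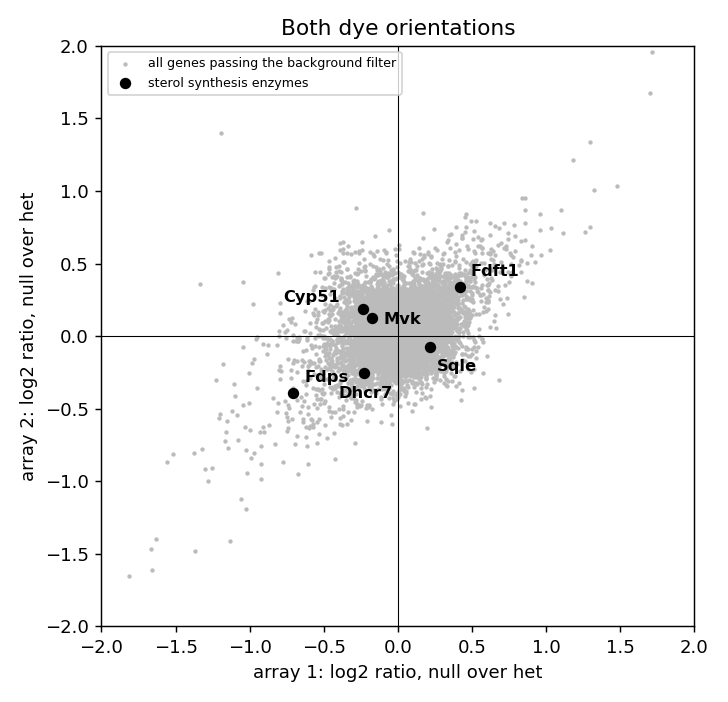
Log2 ratio of null over het on array 1 (horizontal axis) against array 2 (vertical axis) for all genes passing the background filter (grey, 2 genes outside the axes not drawn) and the 6 measured enzymes (black). Fdps and Dhcr7 lie in the lower left quadrant, Fdft1 in the upper right, and Mvk, Cyp51 and Sqle where the arrays disagree.

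Agreement between the arrays depended on brightness. Among all genes within 0.5 log2 units of the brightness of Fdps, the ratios of the arrays correlated across genes with r = 0.50, and around Fdft1 with r = 0.55. Around Sqle and Dhcr7 r was 0.32 and 0.31, and around Mvk and Cyp51 it was -0.04 for each. These correlations are across genes that share both arrays and are a description only. Mvk and Cyp51 were in the dimmest 25% of genes, where 41.7% had the same sign on both arrays and the SD of the dye part (0.08) exceeded that of the mean ratio (0.07). Fdps and Fdft1 were in the brightest 25%, where 51.4% had the same sign.

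The other enzymes of the pathway were mostly lower in the null pool. Of 13 listed genes, 8 had a probe by symbol and all passed the filter. On both arrays 5 of the 8 were lower and 1 was higher, beside 24.3% and 22.7% of all genes. None reached 0.32 in size on each array. Their median was -0.18, with -0.24 on array 1 and -0.13 on array 2. Hsd17b7, a ketoreductase of the steps that remove methyl groups, was farthest from 0, at -0.70 and -0.17 (mean -0.44 ± 0.38), so 1 array carried most of its value. The enzymes described next were named after their values were seen. Msmo1, the sterol methyl oxidase, had -0.37 and -0.25 (mean -0.31 ± 0.08), and Pmvk, the kinase that acts just after Mvk, had -0.27 and -0.24 (mean -0.25 ± 0.02). Mvd, the decarboxylase that makes isopentenyl diphosphate, had -0.15 ± 0.07. Ebp, a sterol isomerase, had 0.26 on array 1 and -0.26 on array 2. Lbr, the lamin B receptor with sterol reductase activity, was the higher one, at 0.02 ± 0.00243.

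Among probes named by their enzyme in the description, HMG-CoA reductase (M62766), the classical rate-limiting enzyme of the pathway, had -0.09 and 0.08 (mean -0.00315 ± 0.12), with no settled direction. The sterol-C5-desaturase probe (AB016248) had -0.45 and -0.39 (mean -0.42 ± 0.04), 1.34-fold lower in the null pool and past 0.32 on both arrays. The delta(14)-sterol reductase probe (BC014769) had -0.23 and -0.26 (mean -0.25 ± 0.02).

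With these probes, 19 probes covered the pathway. On both arrays 10 of them (52.6%) were lower and 2 (10.5%) were higher, beside 24.3% and 22.7% of all genes, and the median was -0.15. Of the 6 that act up to farnesyl diphosphate, 4 were lower on both arrays and none was higher. Of the 3 for squalene and lanosterol formation, none was lower and 1, Fdft1, was higher. Of the 10 after lanosterol, 6 were lower and 1 was higher. Fdft1 had the highest ratio of the 19 and Fdps the lowest. The next highest was Nsdhl, a sterol dehydrogenase, at -0.02 and 0.17 (mean 0.08 ± 0.14).

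Genes listed for other fates of farnesyl diphosphate had mean ratios close to 0. The list includes later steps of lipid anchoring, whose enzymes do not all use farnesyl diphosphate itself. Of 15 listed genes, 8 were measured by symbol, and their median was -0.02. On both arrays 1 was lower and 1 higher, beside 24.3% and 22.7% of all genes. The other 6 had opposite signs on the arrays, as had 9814 of all 18519 genes. The one farthest from 0 was Rabggtb, a subunit of the enzyme that attaches lipid anchors to Rab proteins, at -0.13 and 0.35. A probe described as protoheme IX farnesyltransferase (AK010385), which uses farnesyl diphosphate to make heme O, had 0.19 and 0.21 (mean 0.20 ± 0.01). It is named as the one farthest from 0 once probes named by description are included. Of the 13 then measured, 3 were lower and 2 higher on both arrays, with a median of -0.02.

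Genes of sterol sensing and transport had no common direction. Of 21 listed genes 11 passed the filter, and the median was 0.00362. On both arrays 3 were lower and 3 higher, near the shares of all genes (24.3% and 22.7%), and none by 0.32 on each. Npc1, which moves cholesterol out of lysosomes, was farthest from 0 at 0.21 and 0.31 (mean 0.26 ± 0.07). The Srebf2 spot carried an outlier flag and was left out; with flagged spots kept it read -0.07 and -0.11. No probe was matched to Insig1 or Scap.

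Of 9 measured genes of SREBP-driven fatty acid synthesis, 3 were lower and 1 higher on both arrays, with a median of -0.03. Over all genes 24.3% were lower and 22.7% higher, so these counts are a description only. Elovl6, which elongates long-chain fatty acids, was 1.85-fold lower in the null pool (-0.97 and -0.81, mean -0.89 ± 0.12), a larger difference than that of any sterol enzyme measured here. Fatty acid synthase, read by the probe for AF127033 and named after its value was seen, had -0.14 and -0.22 (mean -0.18 ± 0.06). The probes for ATP citrate lyase (0.09 and 0.13) and acetyl-CoA carboxylase (0.11 and 0.01), also named after their values were seen, were higher on both arrays. A further acetyl-CoA carboxylase probe did not pass the filter. With the probes named by description, 12 passed, of which 4 were lower and 3 higher on both arrays (median -0.01).

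**Figure D5:**
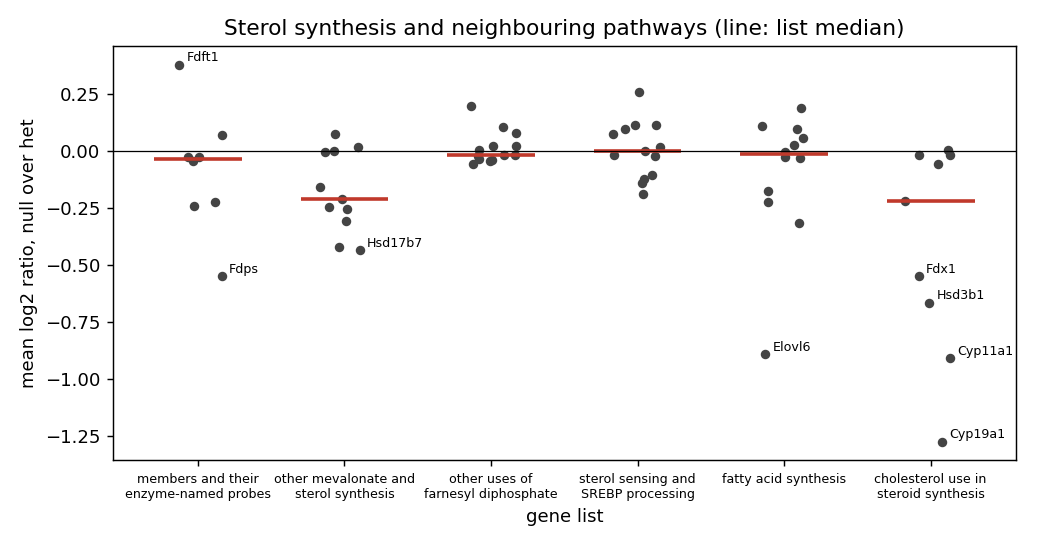
Mean log2 ratio of null over het (vertical axis) of each gene passing the background filter, by gene list (horizontal axis), including probes named by their enzyme; red lines are list medians. The spread is narrow for other uses of farnesyl diphosphate (median -0.02), and the lowest values among these 6 lists belong to the steroid synthesis genes Cyp19a1 (-1.27) and Cyp11a1 (-0.91).

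Among genes of cholesterol use in steroid synthesis, of 9 measured, 6 were lower and none higher on both arrays (24.3% and 22.7% of all genes). By at least 0.32 on each array, 4 were lower, beside 0.799% of all genes. These were Cyp19a1 (aromatase, -1.27 ± 0.20), Cyp11a1 (side chain cleavage, -0.91 ± 0.17), Hsd3b1 (-0.66 ± 0.11) and Fdx1 (ferredoxin, the electron donor of Cyp11a1, -0.55 ± 0.17). Cyp11a1 had 2 probes, and only the brighter is given. Hsd17b1, also listed, carried an outlier flag and was left out. With flagged spots kept it read -0.65 and -0.53. Star, which carries cholesterol into mitochondria, had -0.05 and 0.01, from spots of at least 1.51 times the local background.

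The probe for Esr2, the targeted gene, had -0.50 and -0.46 (mean -0.48 ± 0.03). Where this probe lies with respect to the mutation is not given in the sources used here, so it does not check the labels. All 9 measured granulosa markers, of 12 listed, were above background in all 4 channels. This does not check the cell label, since 87.2% to 95.1% of all spots were well above background, depending on pool and array. The 13 oocyte markers that passed the filter were also above background in all 4 channels. Of the 9 granulosa markers, 5 had ratios below 0 and 3 had ratios above 0 on each array. The summed linear signal of the granulosa markers was 13503 to 15556 in the null and 22164 to 30582 in the het pool. The sum is weighted most by Inhba, the brightest of the 9 (ratios -1.51 and -0.81), so it does not stand for the markers as a set. Oocyte markers were higher in the null pool: of 17 listed, 14 had a probe, 13 passed the filter, and all 13 were higher on both arrays. Their summed linear signal was 14653 to 17847 in the null pool and 10193 to 10245 in the het pool; Figla was the one with a probe not passing the filter.  For all these marker counts, the shares over all genes were 24.3% lower and 22.7% higher on both arrays. Markers of other cell types were also measured. On both arrays 4 of 5 stroma and smooth muscle markers were higher in the null pool and none lower (median 0.11, highest Dcn at 0.39 ± 0.06), with summed signals of 2677 to 3223 in the null and 2778 to 3032 in the het pool. Of 5 surface epithelium markers 3 were higher and 2 lower (median 0.12, highest Cdh1 at 0.49 ± 0.01), with sums of 1229 to 1257 and 1155 to 1229. Erythroid markers had opposite signs on the arrays for all 4 measured, and their summed signal in null over het was 0.598-fold on array 1 and 2.04-fold on array 2. Of 6 leukocyte markers 3 were higher and none lower (median 0.01, highest Lyz2 at 0.46 ± 0.05), with sums of 1468 to 1815 and 1369 to 1805. Of 7 theca markers 3 were lower and 1 higher (median -0.03), with sums of 1739 to 2122 and 1931 to 1989, and of 4 endothelial markers 2 were lower and 1 higher (median -0.05), with sums of 801 to 917 and 876 to 973. These ranges span arrays that were normalized apart. Within arrays 1 and 2, summed null over het was 0.883-fold and 1.16-fold for stroma and 0.901-fold and 1.07-fold for theca, so both turned between the arrays. It was 1.02-fold and 1.06-fold for surface epithelium and 1.07-fold and 1.01-fold for leukocyte markers. For endothelial markers it was 0.914-fold and 0.942-fold. The part of the RNA of these cell types in the ratios of the sterol enzymes was not tested.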

How the data were processed

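The measurement was the brightness of 60-base oligonucleotide spots in both dyes on 2 arrays. Per the labels' protocols, 500 ng of total RNA was amplified into labelled cRNA, and 750 ng of each was hybridised for 17 h. Spot and background intensity were deposited as scanner output, from Agilent Feature Extraction A.7.5.1 per the file headers. Their deposited LogRatio is log10 of red over green, after the background correction and dye normalization of that software. The deposited series table holds log2 values of red over green, which lay within 0.001 of each spot's own scanner ratio for 99.5% of values on array 1 and 99.3% on array 2; its column medians are 0 and 0.0022.

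From the scanner files, mean intensities were corrected with normexp (offset 50, which pulls ratios of dim spots toward 0) and each array was normalized by loess (control spots had weight 0) with limma 3.58.1 in R 4.3.3. Python 3.11.15, numpy 2.4.6 and pandas 2.3.3 made the tables. Spots with outlier flags were left out (58 on array 1 and 95 on array 2). Array 2 was turned in sign, and the arrays were averaged as 1 replicate. The brightest probe stood for a gene. Of 20868 probes, 8947 were named by accession through the RefSeq gene table of GRCm38.p6, 744 by the symbol in the description, and 11177 kept the name in the files. Probes whose description names an enzyme without a symbol are given apart.

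No test was run, since each genotype was 1 pool. The normalization code was tested by planting known folds in the null channel of bright real spots. Mvk, Sqle, Cyp51 and Dhcr7 were too dim for that selection, so the test does not cover their ratios. The number of arrays limits the precision. The members and lists were chosen with earlier results of these data known. Named were every member, from the 5 pathway lists the genes past 0.32 in size on both arrays (or the one farthest from 0), from each marker list at most 2 genes farthest from 0, and Esr2, HMG-CoA reductase, Srebf2, Insig1, Scap and Star (1 further gene of the rule is not reported here); the text says which others were picked on their values. Tried as alternatives were the ratio of the scanner software, the values of the series table, no background subtraction, median centring, the mean over probes, a background filter in both pools, flagged spots kept, each array alone and, chosen after seeing the data, the probes named by description.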

Additional observations from a re-analysis of the deposited data

How the results depend on the processing

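The difference between Fdft1 and Fdps kept its direction in all 10 alternatives (0.73 to 1.12), several of which leave these single-probe genes untouched. The members' median of -0.02 became 0.051 under median centring, and 1 array alone gave -0.20 to 0.024. The count lower on both arrays (2) became 1 under median centring and was 3 to 4 with 1 array alone; the count higher (1) became 0 and was 2 to 3. The count past 0.32 in size on both arrays (2) became 0 under median centring, where the ratios of all genes correlated between arrays with r = -0.69 (0.32 with loess). The median of the other pathway enzymes, -0.18, became -0.28 with the scanner software's ratios and with the series table values. The cause of these moves was not tested, apart from the single arrays, which drop the requirement that both arrays agree. The offset and low signal over background limit the dim genes, Mvk and Cyp51. No paired analysis was possible because each genotype was a single pool.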

Other observations

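Probes on other fates of sterols were read after the values were seen. Genes of the oxysterol-binding protein family, lipid carriers between membranes, differed among themselves: Osbpl5 had 0.17 on array 1 and 0.25 on array 2 (mean 0.21 ± 0.06), Osbpl2 had 0.25 and 0.08, and Osbpl10 had 0.21 and 0.06, while Osbpl1a had -0.00666 and -0.39. Ch25h, which makes 25-hydroxycholesterol, had -0.02 ± 0.00261. Cyp46a1, which hydroxylates cholesterol in neurons, had -0.26 and 0.08, with no settled direction. The probe described as 3-hydroxy-3-methylglutaryl-Coenzyme A synthase 2 (AK004865), the mitochondrial enzyme of ketone body synthesis, had 0.02 and 0.43 (mean 0.22 ± 0.29), so array 2 carried its value. A probe weakly similar to the type 2 isopentenyl pyrophosphate isomerase (AK029364) had -0.02 and -0.09.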
